A study of Mus musculus with 6 samples.

Results

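Bile acid synthesis and conjugation was followed through 10 enzyme genes, chosen by symbol from the 24421 genes of the deposited table of hepatic mRNA: Cyp7a1, Cyp8b1, Cyp27a1, Cyp7b1, Cyp39a1, Hsd3b7, Akr1d1, Amacr, Slc27a5 and Baat. All 10 were found. RNA-seq was performed on livers of 3 WT mice and 3 heterozygous PAI-1 deficient (Pai-1+/-) mice, all on the C57BL/6 strain (C57BL/6J in the study's text), fed without restriction and 21 weeks old in the labels, which describe the WT mice as male. The study's text describes the WT mice as littermates and all mice as male, at a slightly lower age than in the labels. It gives the diet as standard chow, and its methods give a cross of Pai-1-/- with WT mice. That cross by itself yields only Pai-1+/- offspring, and how WT littermates arose is not stated. Pai-1+/- mice carry 1 null allele in every tissue, so the genotype is not restricted to the liver.

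The values are the authors' means of the normalized read count over both genotypes together, 1 value per gene. The table of counts per mouse has 6 columns headed by numbers, which match no sample label, and these columns were not used here. The 2 genotypes were therefore not compared for any gene, no SD or n accompanies a level, and the order of the genes below is a description without a test. Levels are given per kilobase of the longest annotated transcript, so that genes of different length can be set side by side. They are ranked among 12499 genes with a mean normalized count above 10 and a single gene of that symbol in the annotation. The median level of these ranked genes was 129 normalized counts per kilobase, and the highest 10% began at 1209. In whole liver, a level reflects both how many cells express a gene and how much RNA each of them holds, which cannot be told apart.

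Bile acids are made from cholesterol in hepatocytes. In the classic route, the ring is hydroxylated first, by Cyp7a1, the rate-limiting enzyme, and Cyp8b1 then directs the product towards cholic acid. In the alternative route, Cyp27a1 oxidises the side chain first and Cyp7b1 hydroxylates the ring of the resulting oxysterol, while Cyp39a1 does the same for an oxysterol that arises mainly in the brain. Hsd3b7 and Akr1d1 carry out later ring steps of both routes, Amacr turns the side chain into the form that can be shortened, and Slc27a5 and Baat couple the bile acid to coenzyme A and then to taurine or glycine.

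Each hepatocyte marker listed was more abundant than every listed marker of the other cell types. All 6 hepatocyte markers lay in the highest 10% of ranked genes, led by Alb, which encodes albumin, with 7.17% of all normalized counts. None of the 5 cholangiocyte, 5 Kupffer cell, 4 liver endothelial cell and 3 stellate cell markers reached the highest 10%. The median level of the cholangiocyte markers was 45.2 normalized counts per kilobase. Without length, however, the stellate cell marker Dcn exceeded 92.1% of ranked genes. Among all genes above 0, Dcn exceeded 90.5% and the Kupffer cell marker Cd5l 92.4%. Of the 4 gallbladder and gut markers, 2 had a mean normalized count above 10, and Fabp6, an ileal bile acid binding protein, was listed at 0.

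The enzymes of bile acid synthesis were abundant as a group. Of the 10 genes, 9 lay in the highest 10% of ranked genes, and the median gene exceeded 97.4% of them. Together the 10 genes took 0.457% of all normalized counts. The exception was Cyp39a1, which exceeded 77.4% of ranked genes.

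**Figure D1:**
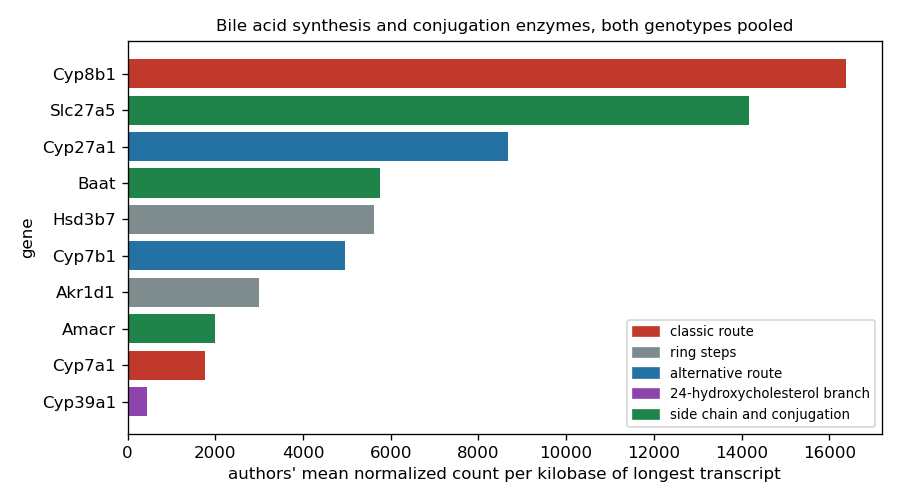
Bars show the authors' mean normalized count per kilobase of longest transcript for the 10 genes, both genotypes pooled, coloured by role. Cyp8b1 (16384) and Slc27a5 (14166) had the highest bars, Cyp7a1 (1765) and Cyp39a1 (449) the lowest, and no error bars are drawn because the values are pooled.

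The 2 enzymes particular to the classic route lay far apart. Cyp7a1 (ENSMUSG00000028240.2), which lies on the minus strand of chromosome 4 from 6265612 to 6275633 in GRCm38 and has 6 exons, had a mean normalized count of 7364. Per kilobase this was 1765, rank 906. Cyp8b1 (ENSMUSG00000050445.4) is a gene of 1 exon on the minus strand of chromosome 9, from 121914356 to 121916305. Its mean normalized count was 31950, or 16384 per kilobase, rank 113. The level of Cyp8b1 was 9.28 times that of Cyp7a1, and the ratio was 4.89 with the median transcript length and 4.34 without length. Per kilobase of longest transcript, Cyp8b1 was the first of the 10 and Cyp7a1 the ninth. With the median transcript length Cyp8b1 was the third and Cyp7a1 the eighth.

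The enzymes of the alternative route lay between these extremes. Cyp27a1 (ENSMUSG00000026170.6), a mitochondrial sterol hydroxylase, lies on the plus strand of chromosome 1 from 74713574 to 74737892, and its longest transcript has 9 exons. It had a mean normalized count of 16422 and a level of 8680 per kilobase, rank 196. Cyp27a1 also oxidises the side chain in the classic route, so its level is not a measure of the alternative route alone. Cyp7b1 (ENSMUSG00000039519.6), the oxysterol 7-alpha-hydroxylase, lies on the minus strand of chromosome 3 from 18071950 to 18243338 and has 6 exons. Its mean normalized count was 10749 and its level 4962 per kilobase, rank 341. Both genes exceeded Cyp7a1, Cyp27a1 by 4.92 times and Cyp7b1 by 2.81 times per kilobase of longest transcript, and both lay below Cyp8b1. Without length the ratios to Cyp7a1 were 2.23 for Cyp27a1 and 1.46 for Cyp7b1, and with the median transcript length they were 6.26 and 1.48. With the median transcript length, Cyp27a1 lay above Cyp8b1, at 20946 against 16384 per kilobase. That length is 784 bases for Cyp27a1, against 1892 for its longest transcript.

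Cyp7a1, Cyp7b1 and Cyp39a1 each add the 7-alpha-hydroxyl group, to cholesterol or to an oxysterol, and their mRNAs can be compared for this step. Only Cyp7a1 opens its route, since Cyp7b1 and Cyp39a1 act on an oxysterol that is already formed. Cyp39a1 (ENSMUSG00000023963.10), with 12 exons on the plus strand of chromosome 17 from 43667425 to 43751431, had a mean normalized count of 1370 and a level of 449 per kilobase, rank 2824. Of the summed level of the 3 genes per kilobase, Cyp7b1 took 69.1%, Cyp7a1 24.6% and Cyp39a1 6.25%. The share of Cyp7b1 depended on the length given to Cyp7a1, whose longest transcript has 4172 bases against 2166 for Cyp7b1. Without division by length Cyp7b1 took 55.2% and Cyp7a1 37.8% of their counts, so the order was the same and the gap narrower. These shares describe mRNA and not enzyme activity.

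The ring enzymes that serve both routes were at intermediate levels. Akr1d1 (ENSMUSG00000038641.12), the reductase that saturates the steroid ring, lies on the plus strand of chromosome 6 from 37530173 to 37568815. It had a mean normalized count of 8070 and a level of 2990 per kilobase, rank 555. Hsd3b7 (ENSMUSG00000042289.11), a microsomal dehydrogenase, lies on the plus strand of chromosome 7 from 127800604 to 127803802, with a mean normalized count of 12831 and a level of 5613 per kilobase, rank 299. The value of Hsd3b7 is uncertain. Its longest transcript is annotated as a retained intron, and its exons share 1717 bases with Gm49388 on the same strand and 1729 with 9430064I24Rik on the other. Of the stretches of 75 bases, the read length, in that transcript, 92.5% also occur, in either orientation, in a transcript of another gene. In the other 9 enzymes 0 such stretches were shared.

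Among the genes that finish the molecule, the ligase was the most abundant. Slc27a5 (ENSMUSG00000030382.15), the bile acid coenzyme A ligase, lies on the minus strand of chromosome 7 from 12988346 to 12998192. It had the highest mean normalized count of the 10 genes, 32413, and a level of 14166 per kilobase, rank 125. Baat (ENSMUSG00000039653.9), the transferase that adds taurine or glycine, lies on the minus strand of chromosome 4 from 49489422 to 49506557, with a mean normalized count of 11173 and a level of 5756 per kilobase, rank 289. Amacr (ENSMUSG00000022244.7), the racemase of the side chain, lies on the plus strand of chromosome 15 from 10981756 to 10996626, with a mean normalized count of 5106 and a level of 1981 per kilobase, rank 825. The level of Slc27a5 was thus 2.46 times that of Baat and 7.15 times that of Amacr per kilobase of longest transcript. With the median transcript length the ratio to Baat was 4.49.

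The order of several neighbours rested on the gene length used. Cyp8b1 had the highest level per kilobase with the longest transcript and with all exons joined, whereas Slc27a5 led without length and with the median transcript length. Cyp8b1 and Cyp7b1 have a single annotated transcript, so their levels per kilobase were the same under each length. Hsd3b7 has 13 annotated transcripts with a median length of 809 bases, and its level rose from 5613 to 15860 per kilobase when that length was used. Cyp39a1 was the lowest of the 10 under every length.

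**Figure D2:**
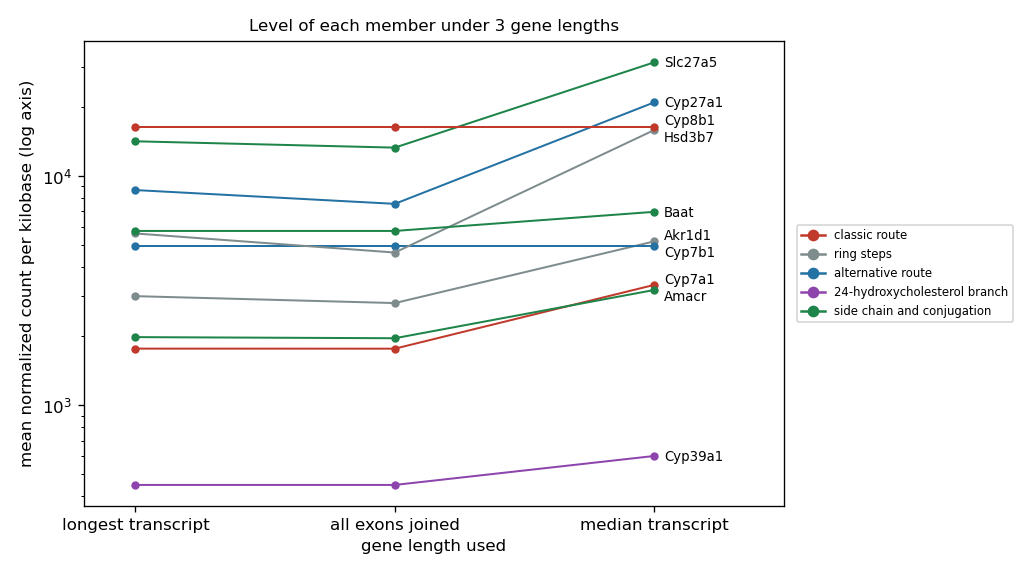
Points show the level of each of the 10 genes in normalized counts per kilobase on a log axis, with the longest transcript, all exons joined or the median transcript as the length. Lines join the values of a gene, and those of Hsd3b7, Cyp27a1 and Slc27a5 climb most with the median transcript, while those of Cyp8b1 and Cyp7b1 are flat.

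Of the other genes of the pathway, 3 exceeded Cyp8b1, the highest of the 10 enzymes, per kilobase of longest transcript. Of 11 such genes, 10 had a mean normalized count above 10 and 8 lay in the highest 10% of ranked genes. Scp2, the peroxisomal thiolase and sterol carrier protein, had 29026 normalized counts per kilobase, and Slc27a2, a very long-chain acyl-CoA synthetase that also activates bile acid precursors, had 27892, which was 1.97 times the level of Slc27a5. Akr1c6, a hydroxysteroid dehydrogenase, had 17205, and it lay below Cyp8b1, at 11814, with all exons joined. Hsd17b4, the peroxisomal bifunctional enzyme, had 8105 and Abcd3, a peroxisomal transporter of bile acid precursors, had 7628 normalized counts per kilobase. Cyp2c70, which makes the muricholic acids of mice, had 5541, which was 0.338 times the level of Cyp8b1, or 0.751 times with the median transcript length. Acot12, a thioesterase whose part in bile acid synthesis was not examined here, had 2621. Acox2, the oxidase that starts side chain shortening, had 2282, and Acot8, a peroxisomal thioesterase, was at 429 per kilobase. The hydroxylases that make the other oxysterols were low. Cyp46a1, the cholesterol 24-hydroxylase of neurons, had a mean normalized count of 122, or 57.8 per kilobase, and Ch25h, the cholesterol 25-hydroxylase, had a mean normalized count of 1.36.

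The genes known to regulate the pathway were less abundant than the enzymes. Of 11 regulators, 3 lay in the highest 10% of ranked genes, and their median level was 985 normalized counts per kilobase, against 5288 for the 10 enzymes and 129 for all ranked genes. Hnf4a, a nuclear receptor required for Cyp7a1 and Cyp8b1 transcription, had the highest level of the regulators, 5587 per kilobase. This was above Cyp7b1, Akr1d1, Amacr, Cyp7a1 and Cyp39a1. With the median transcript length Hnf4a had 35216 per kilobase, above all 10 enzymes. That length is 692 bases for Hnf4a, against 4362 for its longest transcript. Without length Hnf4a lay below Cyp8b1 and Slc27a5, at 24370 against 31950 and 32413. Ppara, a receptor for fatty acids, had 2858 and Nr1h4, the bile acid receptor FXR, had 2800. Both lay above Amacr, Cyp7a1 and Cyp39a1 per kilobase of longest transcript. With the median transcript length Nr1h4, at 2839, lay below Amacr (3181) and Cyp7a1 (3347). Without length Nr1h4 lay below Cyp7a1, at 5636 against 7364. Nr1h3, the oxysterol receptor, had 1190, Nr1i2, a xenobiotic receptor, 1085 and Nr0b2, the repressor SHP that FXR induces, 985 per kilobase. Among all genes above 0, Nr1h3, Nr1i2 and Nr0b2 also lay in the highest 10%, exceeding 92.5%, 92.0% and 91.3% of genes. The receptor for the intestinal hormone that lowers Cyp7a1 is made of Fgfr4 and its partner Klb, which had 406 and 307 per kilobase. Nr5a2, the receptor LRH-1, had 314, the repressor Mafg 175 and the corepressor Prox1 102 per kilobase. Prox1, whose longest transcript has 7913 bases, lay below the median of ranked genes per kilobase but exceeded 64.4% of them without length.

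**Figure D3:**
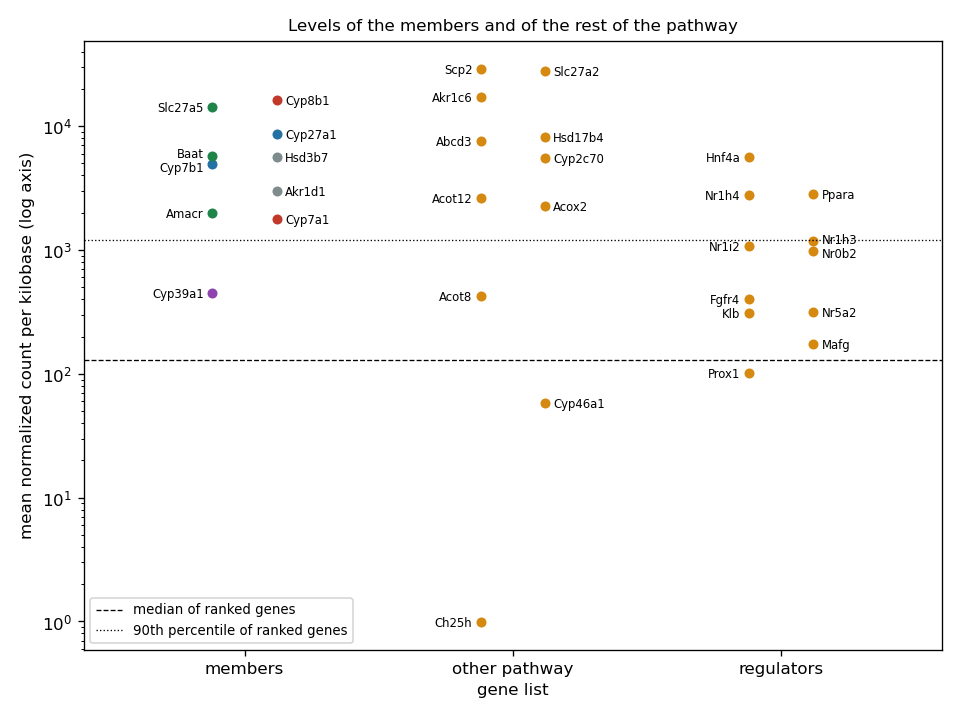
Points show the level of each gene in normalized counts per kilobase of longest transcript on a log axis, for the 10 enzymes, 11 other pathway genes and 11 regulators, with the median (129) and the 90th percentile (1209) of ranked genes as horizontal lines. Of the enzymes 9 lie above the upper line, as do 8 other pathway genes and 3 regulators, while Ch25h lies far below the rest.

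Upstream sequence was read from RefSeq (GRCm38.p6) for the 4 enzymes with an entry, Cyp8b1, Cyp27a1, Akr1d1 and Hsd3b7, and 250 bases before the transcription start were searched on both strands for 7 motifs. The windows of Cyp8b1, on the minus strand at chr9:121916306-121916555, and of Cyp27a1, on the plus strand at chr1:74713285-74713534, are shown because they set the most abundant classic enzyme beside the enzyme that opens the alternative route. Capitals mark motif matches.
Cyp8b1: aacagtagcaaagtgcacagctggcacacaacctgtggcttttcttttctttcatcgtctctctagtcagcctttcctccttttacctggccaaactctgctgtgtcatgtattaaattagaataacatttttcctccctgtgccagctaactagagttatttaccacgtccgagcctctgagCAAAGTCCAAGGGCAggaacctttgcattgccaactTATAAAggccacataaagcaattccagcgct
Cyp27a1: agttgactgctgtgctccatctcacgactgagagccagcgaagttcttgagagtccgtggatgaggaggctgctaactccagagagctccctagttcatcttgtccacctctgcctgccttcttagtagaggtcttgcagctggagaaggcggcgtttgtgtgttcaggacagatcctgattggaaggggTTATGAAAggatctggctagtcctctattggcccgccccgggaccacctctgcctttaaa

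The Cyp8b1 window held the HNF4 motif CAAAGTCCA from base -67 to -59 before the start, the LRH-1 motif CAAGGNCA from -60 to -53, which overlaps it, and the TATA box TATAAA from -31 to -26. The HNF4 motif was present in 0.384% of 32851 promoter windows of the same length, the LRH-1 motif in 5.53% and the TATA box in 12.4%. In windows of the highest 10% of ranked genes, these shares were 1.13%, 5.34% and 10.4%. The Cyp27a1 window held the D-box motif TTATGNAA from -60 to -53, which was present in 3.07% of all windows. In Akr1d1, the bases from -8 to -1 matched both the D-box and the C/EBP motif TTGCNNAA, the latter on the opposite strand and present in 9.56% of all windows. The Hsd3b7 window held none of the 7 motifs. The E-box CACGTG (6.02% of all windows) and the HNF1 motif GTTAATNAT (0.737%) were found in 0 of the 4 windows. A match is a run of letters and was not tested as a binding site. The motifs were chosen after the promoter sequences were seen, so the shares do not measure how unexpected a match is.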

How the data were processed

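Libraries from the livers of 3 WT and 3 Pai-1+/- mice were read from a single end, and the authors aligned the reads to mm10 with STAR and analysed the counts with DESeq2 in the RNA Express BaseSpace application. The submitters' processing notes also name HOMER. Versions, gene annotation and strand setting are not given in the sources used here. The signal used is the authors' deposited mean normalized count, in which each library was scaled by its size factor before averaging, and it sums to 30045982. The deposited table also holds the authors' fold changes, standard errors, test statistics and p-values for the genotypes, none of which was used. The 6 columns of counts per mouse carry numbers found in no label, so the planned edgeR test could not be run. As no column could be tied to a sample of this series, they entered no step, and depth per library was not computed here.

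Means were divided by transcript length in kilobases from GENCODE M21 on GRCm38, the assembly of mm10. Of genes with a mean above 10, 96.4% matched 1 gene by symbol. Alternatives were the joined exons, the median transcript length, no length, and ranking among all genes above 0. Ranking was tested on simulated data. The genes named were the 10 enzymes, 11 other pathway genes, 11 regulators and cell type markers where a list is described. The result of 1 further planned gene is not reported here. Members and lists were chosen with earlier results of these data known, and the motifs after the promoter sequences were seen. Python 3.11.15, NumPy 2.4.6, pandas 2.3.3 and Matplotlib 3.10.9 were used.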

Additional observations from a re-analysis of the deposited data

How the results depend on the processing

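The number of the 10 enzymes in the highest 10% of genes was 9 with each length, without length and among all 16953 genes above 0 with a single annotated gene. The share of genes below the median enzyme was 97.7% with all exons joined, 94.8% with the median transcript length, 97.2% without length and 98.1% among all genes above 0. The level of Cyp7b1 over that of Cyp7a1 was 1.48 with the median transcript length and 1.46 without length. That of Cyp8b1 over Cyp7a1 was 9.29 with all exons joined, 4.89 with the median transcript length and 4.34 without length, and that of Cyp27a1 over Cyp7a1 was 4.28, 6.26 and 2.23. Each of these ratios stayed above 1, and their change follows from the lengths, since the counts are the same. No paired analysis was possible because the values used are pooled over all mice. The planned comparisons of Pai-1+/- with WT by edgeR or DESeq2, with or without a low-count filter or a mouse left out, were not run. This was because the numbers that head the columns of counts per mouse match no label. For the same reason those columns entered no step, and the spread between mice and the depth of each library were not computed here.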
